A study of Mus musculus with 4 samples.

Results

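Csf1r encodes the receptor through which macrophages sense colony stimulating factor 1 and interleukin 34, and the data described here are the sites on its RNA that were recovered with the RNA-binding protein IGF2BP2 in mouse macrophages. The sites were taken from 2 deposited peak lists: every peak that the authors gave the gene identifier of Csf1r and did not mark as antisense. This gave 24 peaks of 38081 in all, 12 of 15511 in the list of replicate 1 and 12 of 22570 in the list of replicate 2. No peak of either list was marked antisense to Csf1r.

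The study sequenced RNA from bone-marrow-derived macrophages (BMDMs, macrophages grown in culture from mouse marrow) after immunoprecipitation of IGF2BP2, and set it against input RNA. It has 4 samples, 2 IGF2BP2 immunoprecipitation (IP) libraries and 2 input libraries, and the labels give no strain, genotype, age, stimulus or culture time for any of them. The labels name 2 antibodies for the precipitation, one against IGF2BP2 in the sample characteristics and one against the Flag tag in the protocol, and they mention no Flag-tagged protein. The labels do not give the origin of the replicates (cultures or animals), so the spread between them may be technical. The input libraries were not analysed here, so an RNA that was bound strongly and an RNA that was abundant cannot be told apart in any value below.

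CSF1R is a receptor tyrosine kinase of the same class as KIT, FLT3 and the PDGF receptors. Its extracellular immunoglobulin-like domains bind the ligand, a single transmembrane helix follows, and a kinase domain split by an insert lies inside the cell. Macrophages depend on its signal for survival, proliferation and differentiation. IGF2BP2 is a cytoplasmic RNA-binding protein that reads N6-methyladenosine (m6A), a methyl mark on messenger RNA found in the consensus motif DRACH, and it is known for stabilising the transcripts it binds.

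The sites were placed on the gene as annotated in GENCODE M21 on GRCm38 (mm10), the build of the files. Csf1r (ENSMUSG00000024621) lies on the plus strand at chr18:61100598-61132149. Its principal transcript spans chr18:61105572-61131134 and has 22 exons and 21 introns, with 3870 nucleotides (nt) of mRNA and 21693 nt of intron. The start codon lies in exon 2 and the stop codon in exon 22, and the mRNA encodes 977 residues. The most hydrophobic stretch of 19 residues after the first 50, which marks the transmembrane helix, covers residues 516 to 534 and is encoded in exon 11. No sequence of the gene is printed here.

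Csf1r carried some of the most heavily recovered RNA in both libraries. Tags are the sequenced reads or fragments that the authors counted in a peak. The 12 peaks summed to 932 tags in replicate 1 and 1421 tags in replicate 2, of 189393 and 324456 tags in all peaks. By summed tags Csf1r ranked 9 of 4962 genes with a peak on their own strand (a sense peak) in replicate 1, and 14 of 6070 in replicate 2. Its share of all tags in peaks was 0.492% (95% exact binomial interval 0.461% to 0.525%) in replicate 1 and 0.438% (0.416% to 0.461%) in replicate 2. The share was lower in replicate 2 (two-sided Fisher's exact test on tags, p = 0.00573, odds ratio 0.890 for replicate 2 over replicate 1), with a difference of -0.0541 percentage points. The test and the intervals take tags as independent and compare these 2 libraries. PCR copies could not be removed and many tags share a peak, so the p is too small and the intervals are too narrow. The tags in all peaks also depend on which peaks were called.

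The place near the top was kept when tags were divided by mRNA length. This length leaves out introns, while tags from intronic parts of peaks are counted. Per kilobase of mRNA, Csf1r had 241 tags in replicate 1, rank 11 of 4812 protein-coding genes, whose median was 3.32. It had 367 tags per kilobase in replicate 2, rank 13 of 5846, with a median of 4.68. The number of its peaks stood lower, at rank 82 in replicate 1 and 175 in replicate 2, while its strongest single peak ranked 12 in both libraries. Each of its peaks was well filled: they held 29 to 215 tags each in replicate 1 (median 63.5) and 26 to 363 in replicate 2 (median 91.5), where the median over all peaks was 7 and 8 tags.

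**Figure D1:**
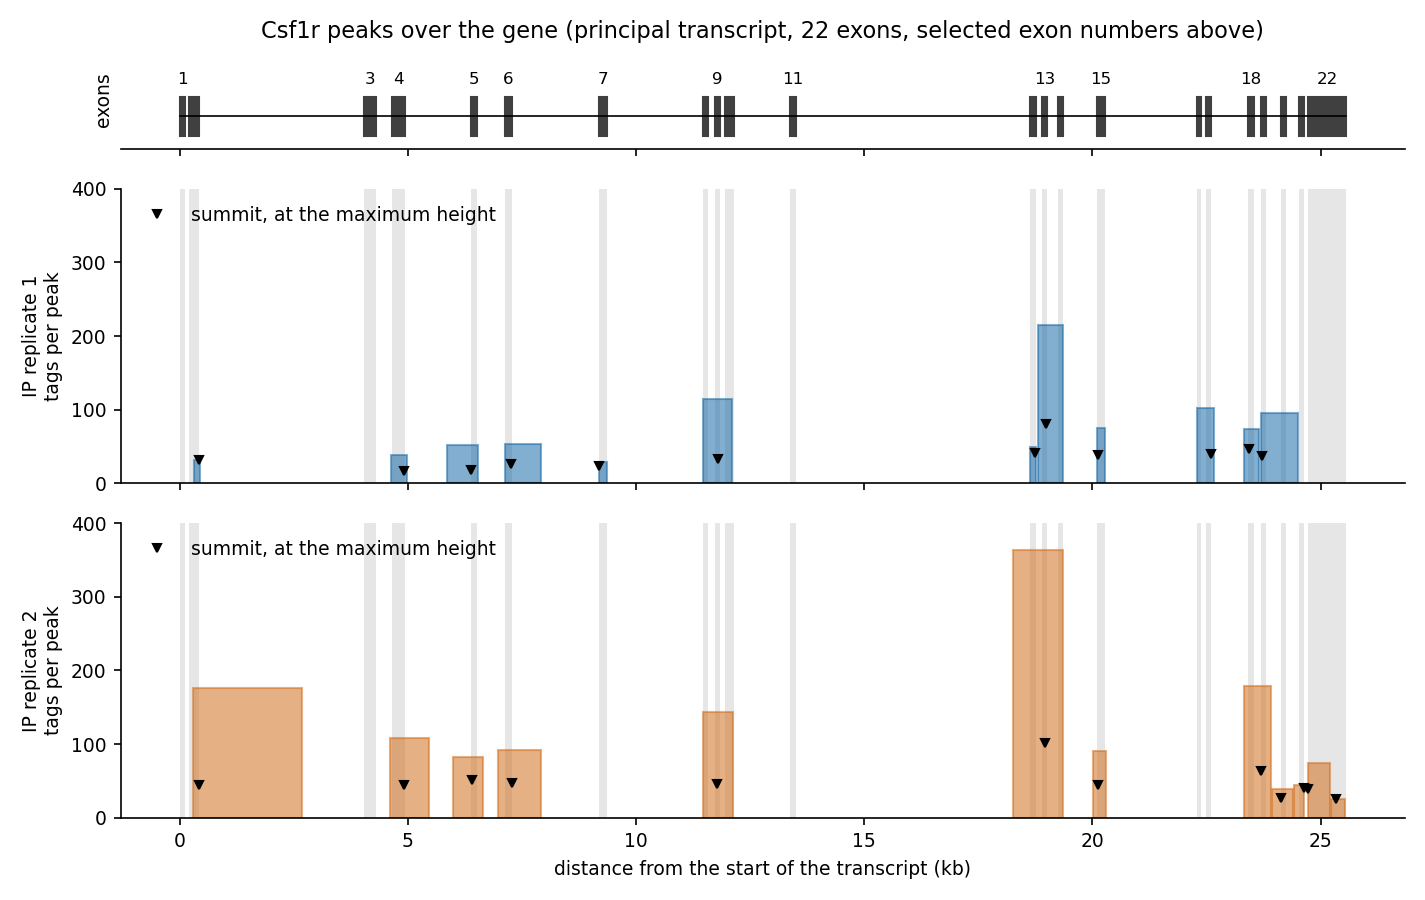
The 24 Csf1r peaks along the principal transcript in IP replicate 1 (upper) and IP replicate 2 (lower), as bars whose width is the peak and whose height is its tags, with triangles at each summit placed at the maximum height and the 22 exons as boxes above and grey bands behind (x axis: distance from the transcript's start in kb; y axis: tags per peak). Every triangle stands on an exon, and introns 7 and 11 hold little or no peak.

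The strongest site in both libraries lay over exons 12 to 14, the first exons after the transmembrane one, which encode the juxtamembrane region and the start of the kinase domain. In replicate 1 it was called as a pair of peaks: chr18:61124199-61124325, which begins and ends with exon 12 and held 49 tags, and chr18:61124385-61124923, which ends on the last base of exon 14 and held 215 tags with up to 80 stacked at 1 position. In replicate 2 it was a single peak, chr18:61123829-61124923, of 363 tags with a maximum height of 101. The peak of 215 tags ranked 16 of all 15511 peaks in replicate 1 and the peak of 363 tags ranked 15 of all 22570 in replicate 2. The site held 264 of the Csf1r tags in replicate 1 (28.3%) and 363 in replicate 2 (25.5%). The summits of the 215-tag and the 363-tag peak were 21 nt apart, both in exon 13.

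A second strong site lay over exons 18 to 21, further into the kinase domain. It held 170 tags in replicate 1, in peaks of 74 tags (summit in exon 18) and 96 tags (chr18:61129260-61130082, summit in exon 19). It held 263 tags in replicate 2, in peaks of 179 tags (chr18:61128896-61129483, summit in exon 19), 39 tags (summit in exon 20) and 45 tags (summit in exon 21). The site was split at different places: between exons 18 and 19 in replicate 1 and within introns 19 and 20 in replicate 2. Exon 15, which lies between these sites, had a peak of 75 tags in replicate 1 whose ends are those of the exon (chr18:61125674-61125836) and a peak of 91 tags in replicate 2.

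Upstream of the transmembrane exon, the exons for the immunoglobulin-like domains carried a row of sites, each with fewer tags than the 2 strong sites above. Exons 8 to 10 were joined in 1 peak in each library, chr18:61117041-61117676 with 115 tags in replicate 1 and chr18:61117041-61117700 with 143 tags in replicate 2. As a single peak this exceeded both peaks of the second strong site in replicate 1 (74 and 96 tags), but not the largest one there in replicate 2 (179 tags). Both began on the first base of exon 8, and their summits were 32 nt apart in exon 9. Exon 4 had 39 tags in replicate 1 and 109 tags in replicate 2, with the summit on the same base, 61110498. Exon 5 had 52 and 83 tags in replicates 1 and 2, and exon 6 had 53 and 92.

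Exon 2, which holds the start codon, had the highest ratio of tags between the libraries among the 8 sites found in both. In replicate 1 its peak covered 139 nt (chr18:61105889-61106027) and held 32 tags, all of them stacked at the summit. In replicate 2 it covered 2377 nt (chr18:61105870-61108246) and held 176 tags with a maximum height of 45. The summits were 1 nt apart, at the end of exon 2. What differed was the extent into intron 2, of which 29 nt were covered in replicate 1 and 2248 nt (62.2% of the intron) in replicate 2. Sense peaks of 2377 nt or longer were rare in the replicate 2 list, 16 of 19568 (0.0818%).

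Across the 8 sites present in both libraries, replicate 2 had 1.21 to 5.5 times the tags of replicate 1, with a median of 1.57. All tags in peaks were 1.71 times as many in replicate 2, and 3 of the 8 sites exceeded that ratio: exon 2 at 5.5, exon 4 at 2.79 and exon 6 at 1.74. The other shared sites, exon 5 and the 4 from exon 8 to exon 21, had ratios of 1.21 to 1.60. The ratios leave out the 4 sites found in 1 library, exons 7 and 16 to 17 in replicate 1 and the pair on exon 22 in replicate 2.

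**Figure D2:**
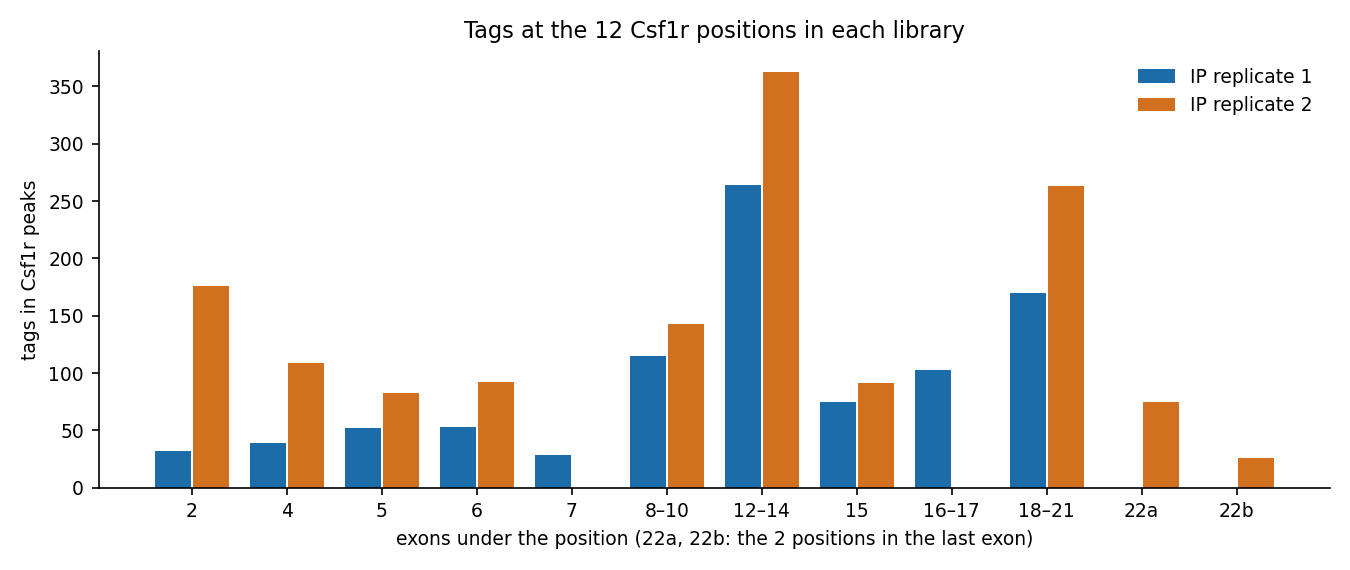
Tags at each of the 12 Csf1r positions, in 5′ to 3′ order along the x axis, for IP replicate 1 and IP replicate 2 (y axis: tags summed over the peaks of the position). Exons 12 to 14 are highest in both libraries, with 264 and 363 tags, and 4 positions have tags in 1 library only.

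Most Csf1r peaks overlapped one of the other library, and 8 of the 12 sites were found in both. Of the 12 peaks, 10 overlapped a Csf1r peak of the other library by at least 1 base in replicate 1 and 10 in replicate 2 (83.3% each), and they held 85.8% of the Csf1r tags in replicate 1 and 92.9% in replicate 2. Over all peaks the overlapped share was 34.8% in replicate 1 and 23.6% in replicate 2, and over sense peaks 36.9% and 25.2%. Strong peaks are found again more often, so the closer background is sense peaks with at least as many tags as the weakest Csf1r peak: 76.8% of 757 such peaks were overlapped in replicate 1 (at least 29 tags) and 63.2% of 2188 in replicate 2 (at least 26 tags). Read against this background, the Csf1r share of 83.3% was near it in replicate 1 and higher in replicate 2, on 12 peaks each. The background was chosen by tags and not by length, and a longer peak has more bases that can overlap. When at least 50% of both peaks had to overlap, 6 of 12 remained in each list, beside 53.6% and 40.4% of the equally strong peaks.

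Most summits of replicate 1 fell close to one of replicate 2. From each of the 10 overlapped peaks of replicate 1 to the summit of its partner the distance was 0 to 281 nt, with a median of 13 nt, and 8 of the 10 were within 50 nt. The exceptions were exon 12, which had a summit of its own in replicate 1 only, 219 nt from that of the joined peak in replicate 2, and exon 18 in the same way at 281 nt. Of the 10 overlapped peaks of replicate 2, those over exons 20 and 21 had their summits 419 and 924 nt from that of the replicate 1 peak they overlap, which lies in exon 19. Over 4992 overlapped sense peaks of replicate 1, the median distance was 28 nt and 65.3% were within 50 nt.

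Each library had 2 Csf1r peaks that the other lacked. In replicate 1 they were exon 7, with 29 tags over exactly the exon (chr18:61114751-61114937), and exons 16 to 17, with 103 tags (chr18:61127865-61128239). The 103-tag peak ranked 60 in its library and had no counterpart in replicate 2, where peaks lay on both sides of it, over exon 15 and exons 18 to 19. Of sense peaks with 100 tags or more, 16 of 58 (27.6%) in replicate 1 and 38 of 156 (24.4%) in replicate 2 had no overlap in the other list, so a strong peak seen once was not unusual. In replicate 2 both single peaks lay on exon 22, with 75 tags (chr18:61130304-61130766, from the first base of the exon across the stop codon) and 26 tags (chr18:61130793-61131093, wholly in the 3′ UTR). Replicate 1 had no peak on exon 21 or 22, and thus none in the 3′ UTR. A position absent from a list may have had tags that did not pass the authors' peak calling, since uncalled tags are not in the lists.

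The authors' region labels and the summits gave different pictures of where on the RNA these sites lie. By the largest share in the authors' annotation, 5 of 12 peaks in replicate 1 (41.7%, 95% exact interval 15.2% to 72.3%) and 8 of 12 in replicate 2 (66.7%, 34.9% to 90.1%) were intronic. They held 490 of 932 tags in replicate 1 (52.6%, 49.3% to 55.8%) and 1086 of 1421 in replicate 2 (76.4%, 74.1% to 78.6%). The 103-tag peak of replicate 1 was tied at 50% and went to the coding label, although 188 of its 375 nt are intron. By bases of the principal transcript, 6 of 12 peaks with 593 tags (63.6%) were then mostly intron in replicate 1, and the count in replicate 2 was 8 as before. By summit, the base with the most stacked tags, none was: 12 of 12 summits in each library lay in an exon of the principal transcript. No Csf1r peak lay wholly within an intron, and 9 peaks in replicate 1 and 10 in replicate 2 touched both exon and intron.

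The strongest peaks carried an intronic label and an exonic summit. The 215-tag peak of replicate 1 covers 539 nt, of which exons 13 and 14 take 216 nt and introns 323 nt, so it was labelled 60% intron although its summit is in exon 13. The 363-tag peak of replicate 2 has 752 of its 1095 nt in introns and was labelled 69% intron, with its summit in the same exon. The deposited values give a tag count for a whole peak and not for its parts, so tags cannot be divided between exon and intron.

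Between the libraries, the intronic share of peaks did not differ past the threshold (two-sided Fisher's exact test, p = 0.414, odds ratio 2.8). The intronic share of tags was higher in replicate 2 by 23.8 percentage points (two-sided Fisher's exact test on tags, p = 5.09e-33, odds ratio 2.92), and by 12.8 points with the tied peak counted as intron. All tags of a peak share its label. The test and the intervals on tags take them as independent, so the p is too small and the intervals are too narrow for 12 peaks a library. By summit the share was 0 in both (p = 1, exact), which leaves nothing to compare. The peaks of replicate 2 were longer, 230 to 2377 nt with a median of 620.5, against 127 to 823 nt with a median of 362.5 in replicate 1, and medians of 214 and 194 nt over all peaks of the lists of replicates 2 and 1.

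Over all genes an exonic summit under an intronic label was the less common case. Of protein-coding sense peaks, 37.1% in replicate 1 and 40.2% in replicate 2 were intronic by the majority label, and of those 17.7% and 21.1% had the summit in an exon. Among intronic-labelled peaks as strong as the weakest Csf1r peak the shares with an exonic summit were 44.9% (137 of 305) and 41.9% (430 of 1026). All 5 and all 8 such Csf1r peaks had it. Among the 130 protein-coding genes with at least 10 sense peaks in both lists, 37 in replicate 1 and 29 in replicate 2, Csf1r included, had every summit in an exon, beside medians of 80% and 74.2%.

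Some peak edges and summits fell on exon borders. In replicate 1, 7 of 12 Csf1r peaks had at least 1 edge exactly on an exon border and 3 of them, over exons 7, 12 and 15, had both. In replicate 2 it was 3 of 12 and none. Among sense peaks as strong as the weakest Csf1r peak 45.1% and 39.4% had such an edge. The summit lay within 10 nt of an exon border for 7 of 12 Csf1r peaks in each library (58.3%), with a median distance of 7 nt in replicate 1 and 8.5 nt in replicate 2. Among the strong sense peaks of all protein-coding genes with a summit in an exon, 33.7% in replicate 1 and 29.5% in replicate 2 did, but the exons holding those summits were longer, with medians of 178 and 181 nt, against 132 and 148.5 nt for the Csf1r summits.

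Seen on the spliced mRNA, the peaks joined into a few long stretches. In replicate 1 these were 3: part of exon 2 (mRNA positions 222 to 331), exons 4 to 10 (590 to 1740, 1151 nt) and exons 12 to 20 (1903 to 2930, 1028 nt). Replicate 2 had 6, over part of exon 2, exons 4 to 6, exons 8 to 10, exons 12 to 15, and, with a gap in exon 22, exons 18 to 22. Peaks covered 2289 nt of the mRNA in replicate 1 (59.1%) and 2831 nt in replicate 2 (73.2%), with 1915 nt (49.5%) covered in both. They touched 17 of 22 exons in replicate 1 and 16 in replicate 2, 14 of them in both.

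**Figure D3:**
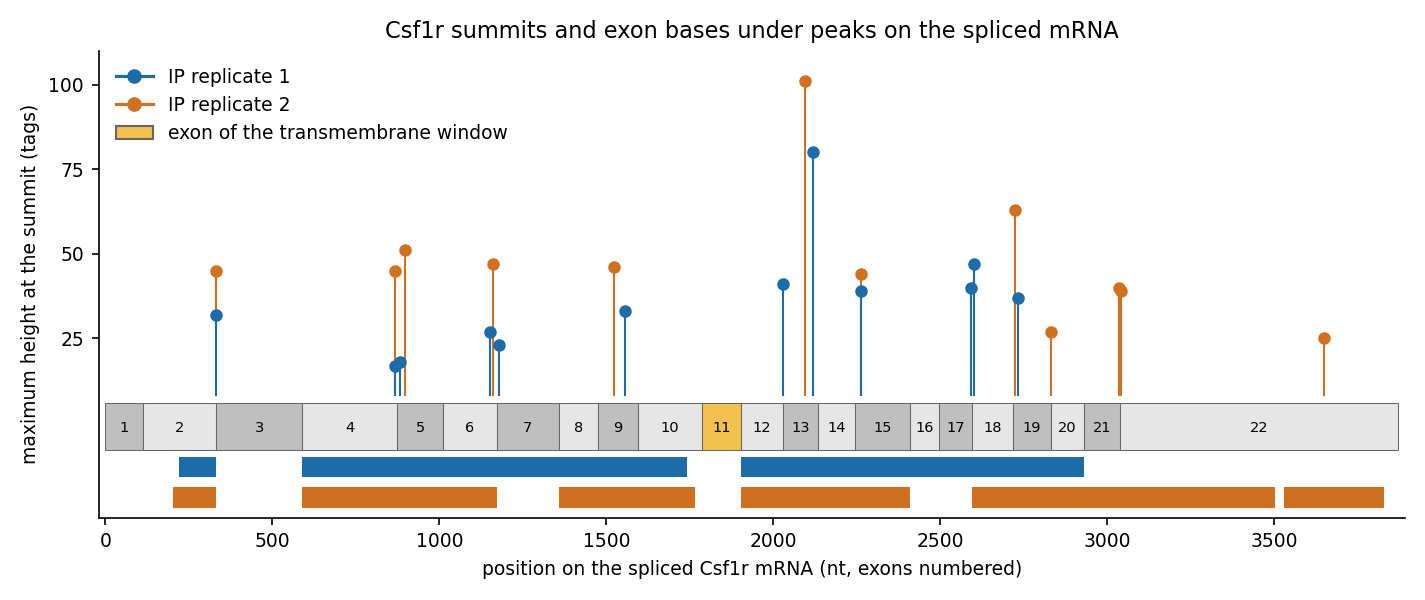
Summits of the Csf1r peaks on the spliced mRNA of IP replicate 1 and IP replicate 2, as points at their maximum height (x axis: position in nt; y axis: tags stacked at the summit), above a strip of the numbered exons, with the exon bases under peaks of each library drawn as bars beneath it. Exons 1, 3 and 11, the last of which encodes the transmembrane helix, carry no bar in either library, and exons 21 and 22 carry one in replicate 2 only.

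Exons 1, 3 and 11 had no peak in either list. Exon 1 is noncoding, exon 3 is a coding exon of 258 nt near the front, and exon 11, of 116 nt, is the transmembrane exon. Exons 7, 16 and 17 were covered in replicate 1 only, and exons 21 and 22 in replicate 2 only. Around the transmembrane exon cover of the mRNA ended within exon 10 in both libraries and began again at the first base of exon 12.

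On either side of exon 11 the tags were divided as follows. Peaks with their summit in exons 1 to 10, which encode the extracellular part, were 6 with 320 tags in replicate 1 (34.3%, 95% exact interval 31.3% to 37.5%) and 5 with 603 tags in replicate 2 (42.4%, 39.8% to 45.1%). Peaks with their summit in exons 12 to 22, for the intracellular part and the 3′ UTR, were 6 with 612 tags (65.7%) and 7 with 818 tags (57.6%). The intervals take tags as independent, although each peak is counted whole by its summit, so they are too narrow. The covered share of the coding bases before exon 11 was 79.8% in replicate 1 and 68.9% in replicate 2, and after it 78.4% and 85.7%. The kinase side held more tags in both libraries, while its covered share of coding bases was larger in replicate 2 only.

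Introns were covered as flanks of exons. Peaks covered 2838 nt of intron in replicate 1 (13.1% of all intron bases) and 6059 nt in replicate 2 (27.9%), of which 2479 nt (11.4%) were shared. Introns 8, 9 and 13, short introns between exons joined in 1 peak, were wholly covered in both libraries. Introns 1, 7 and 10 had no cover in either, and of intron 11, the longest with 5131 nt, 370 nt next to exon 12 were covered in replicate 2 only. Apart from intron 2, the widest intronic stretches lay beside exons 5 and 6 in replicate 1 and beside exons 4, 5 and 6 in replicate 2. The longest intronic stretch of the exon 4 peak was 47 nt in replicate 1 and 531 nt in replicate 2. Intron 4 was covered over 563 nt in replicate 1 and 932 nt in replicate 2, and intron 6 over 631 and 630 nt, next to exon 6. Mir6983, a microRNA gene of 64 nt in intron 9, lay wholly under the peaks of exons 8 to 10 in both libraries, and its RNA cannot be told apart from that of the intron.

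Csf1r stood high among genes with many peaks in how much of its RNA the peaks covered. Of the 130 protein-coding genes with at least 10 sense peaks in both lists, 6 in replicate 1 and 2 in replicate 2 had a larger covered share of their mRNA, and the medians were 24.9% and 29.5%. The covered share of introns was likewise high, with 5 and 3 genes above Csf1r and medians of 1.67% and 3.05%. It had 12 peaks in each list, beside medians of 14 and 17, and 932 and 1421 tags, beside medians of 232 and 405. Covered shares depend on the lengths of exons and introns, which differ between genes, and these ranks are a description.

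The 5 genes most like Csf1r, by the distance over standardised log2 tags, log2 peak number and intronic share of tags in both libraries, were Sirpa, Plek, Abcg1, Iqgap1 and Slc6a6. Sirpa, the inhibitory myeloid receptor for CD47, was nearest at a distance of 0.923, with 14 and 10 peaks and 1052 and 1359 tags in replicates 1 and 2. The others were at up to 2.16, and the median over the 129 genes compared was 3.57. Plek encodes pleckstrin, a protein kinase C substrate, and had 369 and 530 tags. Abcg1, a cholesterol exporter, had 311 and 520 tags. Iqgap1, a cytoskeletal scaffold, had 271 and 590 tags, and Slc6a6, a taurine transporter, had 299 and 526.

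The distance did not use the place of summits, and there the genes differed from Csf1r in value. Sirpa had 50% of its summits in exons in each library, Plek 66.7% and 46.7%, Abcg1 71.4% and 58.3%, Iqgap1 75% in each and Slc6a6 80% in each, against 100% in Csf1r. These genes were chosen by their likeness to Csf1r, so the values are given with no test.

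**Figure D4:**
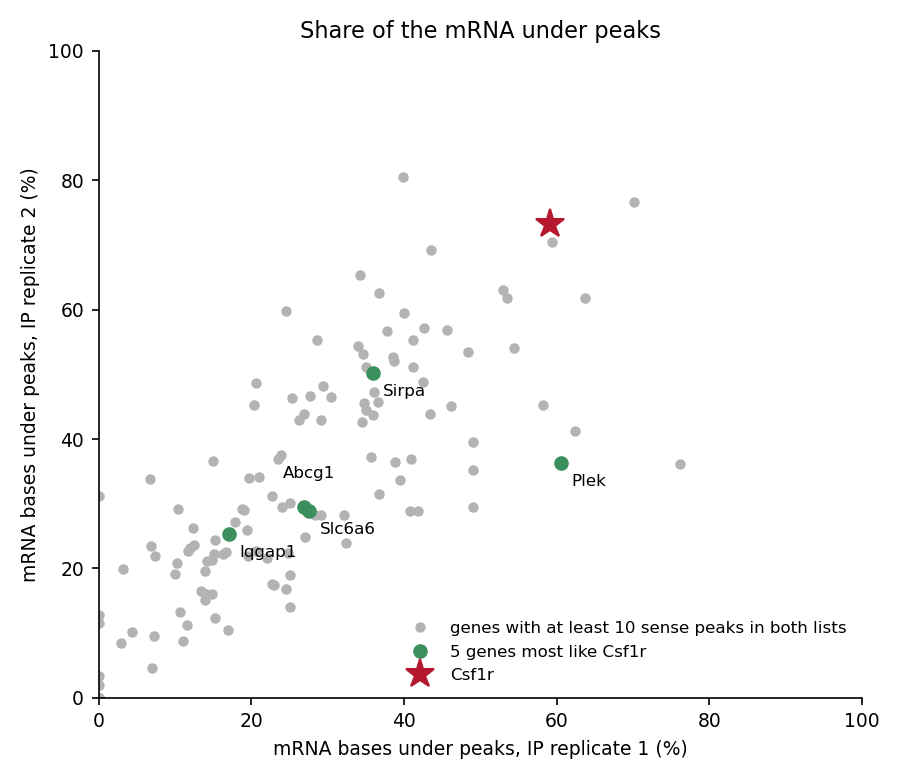
Share of the mRNA under peaks in IP replicate 1 (x axis, %) and IP replicate 2 (y axis, %) for the 130 protein-coding genes with at least 10 sense peaks in both lists, with Csf1r and the 5 genes most like it marked. Csf1r lies at 59.1% and 73.2%, above all 5 in replicate 2, while Plek lies higher in replicate 1 at 60.6%.

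Neither of the searched m6A motifs was denser in the mRNA bases under the Csf1r peaks than in those outside them in both libraries. The intron bases under peaks, 2838 nt in replicate 1 and 6059 nt in replicate 2, do not enter these densities. GGAC, a core form of the m6A motif, occurs 25 times in the Csf1r mRNA on its sense strand (6.46 per kb, beside 4.07 per kb over 21866 principal transcripts). Under peaks it had 6.99 per kb in replicate 1 and 6.00 in replicate 2, and outside them 5.69 and 7.70, so the direction differed between the libraries. The longer DRACH (D is A, G or T, R is A or G, H is A, C or T), whose matches can include GGAC, occurs 95 times (24.5 per kb, beside 20.5). It had 22.7 and 23.3 per kb under peaks and 27.2 and 27.9 outside, so DRACH was less dense under peaks in both libraries. This difference was not tested. At least 1 GGAC lay in the exonic part of 8 of 12 peaks in replicate 1 and 9 of 12 in replicate 2. The same share over all peaks was not computed, so these counts do not show whether Csf1r peaks hold the motif more often. The largest number in a peak was 5, over exon 18 in replicate 1 and exons 18 to 19 in replicate 2. A match is a string of letters and not a measured methyl mark.

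Genes of the receptor's pathway were recovered unevenly, with all 5 shedding and processing genes and none of the sister receptors in both libraries. Over 6 lists of 69 genes, 38 (55.1%) had a sense peak in both libraries, 24 had a peak overlapped between them, 5 had peaks in replicate 1 only, 7 in replicate 2 only and 19 in neither. Over all 21951 protein-coding genes the shares were 17.0% with a sense peak in both and 9.08% with an overlapped one. The lists were chosen with earlier results of these data known, so their higher share is a description and no test. RNA abundance was not measured here, so how the lists compare with equally abundant genes was not tested.

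Of the ligands, Csf1 had 2 peaks with 28 tags in replicate 2 and none in replicate 1, and Il34 had none. None of the class III paralogues Kit, Flt3, Pdgfra and Pdgfrb had a peak in either list. Pdgfrb is also the nearest protein-coding gene upstream of Csf1r, 15536 nt away on the same strand.

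Of 30 genes for proximal signalling, which act at the receptor itself, 19 had peaks in both libraries (63.3%). Cblb, a ubiquitin ligase of the CBL family, had 18 peaks with 582 tags in replicate 1 and 33 with 1250 tags in replicate 2, the most of any gene in the lists. Its relative Cbl, which ubiquitinates activated CSF1R, had 12 and 11 peaks with 190 and 268 tags. The kinase Syk had 10 peaks in each with 167 and 225 tags, and Fyn, a SRC family kinase, had 8 and 16 peaks with 109 and 285 tags. Most Cblb tags were in peaks labelled intronic in both libraries, 432 of 582 and 1146 of 1250.

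The adaptors were lower. Gab2 had 102 and 150 tags in replicates 1 and 2, Dok2 101 and 90, Grb2 39 and 135, and Tyrobp, the adaptor DAP12, 34 and 69. Src, Yes1, Pik3r2, Ptpn6 and Socs1 had no peak in either list.

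All 5 genes of shedding and processing, by which the receptor's outer part is cut off and its stub cleaved in the membrane, had a peak overlapped between the libraries. The shedding proteases Adam10 and Adam17 had 107 and 57 tags in replicate 1, and 134 and 190 in replicate 2. The gamma-secretase subunits Ncstn and Aph1a had 32 and 16 tags in replicate 1, and 59 and 35 in replicate 2.

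Of 16 downstream kinases and factors, 10 had peaks in both libraries, with 190 tags summed over these 10 in replicate 1 and 280 in replicate 2. They included the kinases Akt1 (43 and 47 tags) and Gsk3b (20 and 65). Both sums are below the tags of the single exon 12 to 14 site of Csf1r.

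Of 12 transcription factors known to act at the Csf1r promoter or its intronic enhancer, 4 had peaks in both libraries: Runx1, Spi1, Egr2 and Jun. Runx1 had 266 and 618 tags, of which 236 and 618 were in peaks labelled intronic. Spi1, which encodes PU.1, had 28 and 44 tags and Egr2 had 18 and 103. Cebpa, Cebpb, Ets2, Irf8 and Myb had none in either list.

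**Figure D5:**
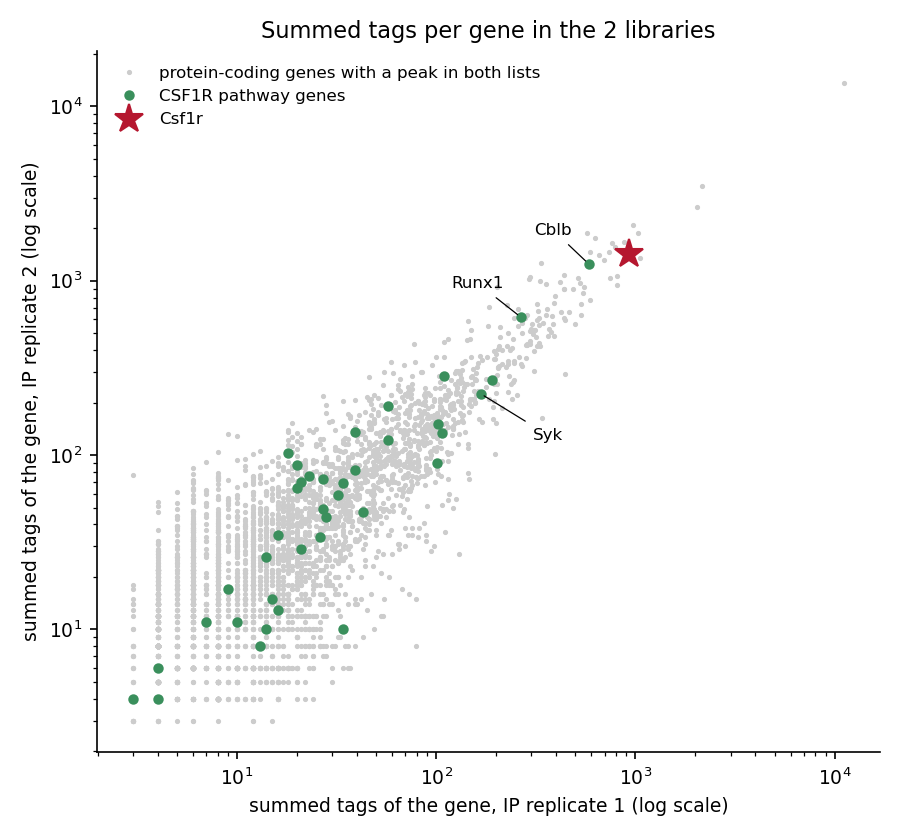
Summed tags per gene in IP replicate 1 (x axis, log scale) and IP replicate 2 (y axis, log scale) for protein-coding genes with a sense peak in both lists, with Csf1r and the pathway genes marked. Csf1r lies at 932 and 1421 tags, above each pathway gene, with Cblb next at 582 and 1250.

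The labelled cell type was checked against 8 macrophage markers. Adgre1, Itgam, Mertk and Mrc1 had peaks in both libraries, with 421, 150, 8 and 1030 tags in replicate 1 and 661, 281, 43 and 1880 in replicate 2. Cd68 had 88 tags in replicate 2 only and Fcgr1 4 tags in replicate 1 only, while Lyz2 and Cd14 had no peak. Of the markers of T cells, B cells, neutrophils, dendritic cells, fibroblasts, osteoclasts and erythroid cells, none had a peak in both libraries. Those with any were Cd3e (3 tags) and Col1a2 (9 tags) in replicate 1, and Acp5 (4 tags) and Ctsk (19 tags) in replicate 2. A peak here needs both the RNA and its recovery, so a marker without one may still be expressed.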

How the data were processed

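RNA immunoprecipitation libraries of BMDMs were compared as 2 peak lists, one per IP library. GRCm38, TopHat2 and bcl2fastq are named per the submitters' processing notes. How peaks were called, and whether inputs entered, is not given in the sources used here. The authors deposited for each peak a raw tag count, which was not normalized. The deposited maximum height is a coverage signal, the deepest stack of tags within the peak. The depth of the libraries is unknown, and tags in peaks are not a library size.

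Deposited starts count from 0. On the plus strand of replicate 1, the start plus 1 was the first base of an exon for 1992 of 7880 peaks. The start as given was such a base for 13. Summits were raised by 1 in the same way, without a check of their own. The summit of the 39-tag peak of replicate 2, on the first base of exon 20, is exonic only with this shift. Positions are printed from 1. Gene identifiers without their version matched GENCODE M21 for 4950 of 4962 genes in replicate 1 and 6052 of 6070 in replicate 2. The principal transcript was the one of the best APPRIS level. Peaks overlapped with at least 1 shared base on 1 strand. A peak's region was the largest share among the authors' region annotations (the first listed where 2 tied). Intervals are exact binomial (95%), and libraries were compared with two-sided Fisher's exact tests at a threshold of 0.05, which treat tags and peaks as independent. Python 3.11.15, numpy 2.4.6, pandas 2.3.3 and scipy 1.17.1 were used. The overlap step was tested on simulated intervals, and the other steps were not tested on simulated data.

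Named are all Csf1r peaks found in both libraries, the 5 with most tags in each, the 5 genes nearest to Csf1r by Euclidean distance among protein-coding genes with at least 10 sense peaks in both, and members of the lists, some of which are not reported here. The genes and lists were chosen with earlier results of these data known. Alternatives were other overlaps, regions, scalings, peak filters and each library alone.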

Additional observations from a re-analysis of the deposited data

Results flagged for a closer look

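A plus-strand peak lay just past the annotated end of Csf1r in both lists. The authors named it antisense to Hmgxb3, a gene on the opposite strand whose annotation overlaps the end of Csf1r by 873 nt, so it was not among the Csf1r peaks. It drew attention as a signal outside the chosen peaks. In replicate 1 it lay at chr18:61132220-61132519, 70 nt past the gene's end, with 8 tags, and in replicate 2 at chr18:61132282-61132483, 132 nt past the end, with 5 tags. From the end of the principal transcript, which lies before the overlap with Hmgxb3, the gaps were 1085 nt in replicate 1 and 1147 nt in replicate 2. The 2 peaks overlap each other. Of all peaks, 52.6% had fewer tags than it in replicate 1 and 19.8% in replicate 2. The lists do not show whether this RNA is joined to Csf1r.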

How the results depend on the processing

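Of 53 recomputed values, 44 stayed the same by the limits set, 8 moved, 1 lost its test and none reversed. Several of the 44 could not have moved, so the tally does not measure robustness. A mean counted as the same when it shifted by less than the standard deviation of the 2 libraries, which a library alone always does. Peaks by position in the gene span were the same 12 and 12, and the filter at the median tag count removed no Csf1r peak. By summit in place of majority region, the intronic share (mean of the libraries) was 0 instead of 54.2% of peaks and 0 instead of 64.5% of tags, and its difference between libraries was 0 instead of 23.8 points, since every summit is exonic. Counting bases of the principal transcript, chosen after seeing the data, gave 12.8 points. Requiring 50% of both peaks left 12 of 20 overlapped peaks, and requiring an overlapped peak left 24 of 38 pathway genes. The mean rank was 16.5 by maximum height, against 11.5. The mean share of tags in peaks was 0.465%, and became 0.297% by maximum height, 0.557% over peaks of at least median tags, and 0.514% without mitochondrial and rRNA peaks including those with a summit in an rRNA gene, an alternative chosen after seeing the data. With each library alone, peaks were 12 and 12, the intronic share 41.7% to 66.7% of peaks and 52.6% to 76.4% of tags, the share of tags 0.438% to 0.492% and the rank 9 to 14. Overlaps, differences between libraries and the pathway count need both libraries and have no such value. No paired analysis was possible because only the IP group had values. With 2 libraries, unknown depth and no input values, neither enrichment nor variation between cultures can be estimated, and an uncalled position says nothing about tags below the authors' threshold.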

Other observations

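Hmgxb3, the neighbour that overlaps the end of Csf1r on the opposite strand, had no sense peak in replicate 1 and 3 in replicate 2, with 24 tags. Within the span of Csf1r every plus-strand peak of both lists, 12 and 12, carried the name Csf1r, and no peak lay on the minus strand.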
